A study of Mus musculus with 8 samples.

Results

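The genes described here form the stress response that the transcription factor ATF4 directs, with the aminoacyl-tRNA synthetases that belong to it. The module was a list of 34 gene symbols, sorted by role into 6 transcription factors and regulators, 5 brakes on growth and other effectors, 10 enzymes of amino acid and one-carbon metabolism, and 13 genes of tRNA export and charging. Of the 34, 33 were measured, out of 18193 genes with a probe set of their own on the arrays. Pycr1, an enzyme of proline synthesis, had no probe set in the annotation used and was not analysed here. The list did not depend on measured values, although it was drawn up with earlier results of these data known.

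The study set out to find genes that mark classically (M1) and alternatively (M2) activated mouse macrophages. Bone marrow cells of wild type C57BL/6J mice, with no transgene or deletion in any condition, were grown into macrophages in medium with L929 cell supernatant, a source of macrophage colony stimulating factor, and on day 7 were replated without that supernatant. For the next 24 hours M1 macrophages (3 arrays) were given 100 ng/ml of LPS together with 20 ng/ml of IFN-γ, M2 macrophages (2 arrays) were given 20 ng/ml of IL-4, and M0 macrophages (3 arrays) were left in medium. LPS comes from the bacterial cell wall, lymphocytes secrete IFN-γ in bacterial and viral infection, and IL-4 belongs to responses against worms and allergens. Arrays of 1 condition are biological replicates by their labels, whereas the methods speak of mice and of repeated cultures of a mouse, so every n is a number of arrays and the p-values measure the spread between arrays. The age of the mice was not given in the sources used here.

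Cells sense a lack of amino acids, misfolded protein, lack of heme and double-stranded RNA with kinases that phosphorylate the translation factor eIF2. Most protein synthesis then slows, but the mRNAs of Atf4 and of a few other regulators are translated more, because small reading frames ahead of their coding sequence no longer hold the ribosome back. ATF4 protein pairs with other basic leucine zipper proteins and switches on genes that import and make amino acids and that load them onto tRNA. In macrophages the response meets a change of metabolism on activation, since activated cells make large amounts of new protein. The arrays measured mRNA and neither the ATF4 protein nor the phosphorylation of eIF2.

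Intensities are given in units, the linear scale of the deposited values, and a level of 64 units served as the limit of what counts as clearly measured. Array medians ran from 38.9 to 40.4 units, and each array had 39.8% to 40.6% of its probe sets above 64 units. All 8 macrophage markers, Csf1r, Adgre1, Itgam, Cd68, Lyz2, Mertk, Fcgr1 and Cd14, exceeded 64 units on every array. Their summed level was 75999 to 77619 units in M1, 53163 to 56861 units in M2 and 78572 to 81228 units in M0 macrophages. Adgre1, Lyz2, Mertk, Fcgr1 and Cd14 were called lower in M2 than in M0, and in M1 Cd68 and Mertk were called lower and Cd14 higher. Csf1r and Itgam were called in neither. The part of these differences in the results below was not tested, and in bulk RNA a smaller number of cells and less RNA per cell cannot be told apart. All 3 measured markers of T cells, all 3 of B cells, both of NK cells, 4 of 5 of neutrophils and 3 of 4 of fibroblasts stayed below 64 units on every array. The fibroblast gene that exceeded it, Col1a2, was at 77.3 to 196 units in M1, 81.6 and 155 units in M2, and 56.6 to 82.7 units in M0 macrophages. The neutrophil gene that exceeded it, S100a8, was at 52.2 to 92.7 units in M1, 35.0 and 53.1 units in M2, and 43.5 to 87.2 units in M0 macrophages.

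The module was up-regulated in M1 macrophages in part and in M2 macrophages almost as a whole. In M1 macrophages 16 of the 33 measured genes were higher than in M0 at an adjusted p under 0.05 (limma fitted over all probe sets, Benjamini-Hochberg), 1 was lower and 16 were not called. Over all 18193 genes, 13.7% were called higher and 11.5% lower in M1. In M2 macrophages 30 of the 33 were higher than in M0, none was lower and 3 were not called, whereas 8.03% of all genes were called higher and 6.43% lower. A change of at least 2-fold was reached by 6 members in M1, where 2.8% of all genes passed it, and by 16 members in M2, where 1.91% of all genes did. The median log2 difference of the members was 0.48 in M1, beside 0.016 over all genes, and 0.99 in M2, beside 0.014 over all genes. The number lower in M1 was 0 without M0 replicate 1, M0 replicate 2, M1 replicate 1 or M1 replicate 3 and 2 without M0 replicate 3, and 1 member, Ddit4, was lower in M2 without M1 replicate 2. With values raised to at least 64 units 13 members were called higher in M2, and the methods' t-test on log2 values with adjustment called 5 higher in M1 and 1 in M2.

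**Figure D1:**
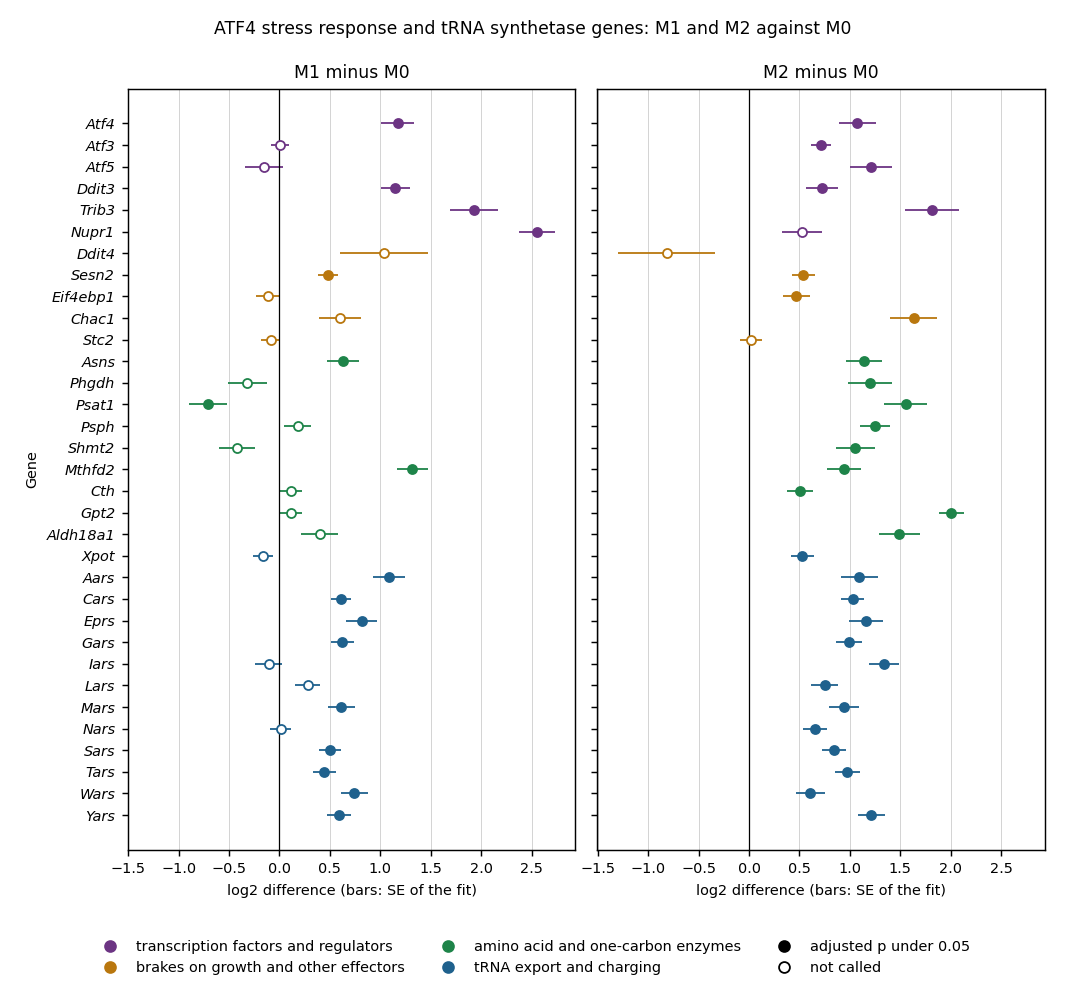
Points show the log2 difference of each of the 33 genes from M0 in M1 (left panel) and M2 (right panel), with the standard error of the fit, coloured by role and filled where the adjusted p was under 0.05. In M2 30 points are filled and lie right of 0, while in M1 16 filled points lie right of 0 and Psat1 lies left of it.

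Both comparisons use the same 3 M0 arrays, so they are not independent of each other. With that limit, 15 members were called higher in both, where 2.88% of all genes were. These were Atf4, Ddit3, Trib3, Sesn2, Asns, Mthfd2 and the synthetases Aars, Cars, Eprs, Gars, Mars, Sars, Tars, Wars and Yars. A further 14 were called higher in M2 only, namely Atf3, Atf5, Eif4ebp1, Chac1, Phgdh, Psph, Shmt2, Cth, Gpt2, Aldh18a1, Xpot, Iars, Lars and Nars. Nupr1 was called higher in M1 only, Psat1 was lower in M1 and higher in M2, and Ddit4 and Stc2 were called in neither comparison.

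Because a call in 1 condition and not in the other does not show that the conditions differ, M1 and M2 were also compared with each other. In M1 macrophages 17 members were lower than in M2, where 12.3% of all genes were, and 2 members, Nupr1 and Ddit4, were higher, where 11.5% of all genes were. Of the 14 members called higher in M2 only, 13 were lower in M1 than in M2, and Cth was not called. Those 14 were grouped by the same M1 and M2 arrays, which favours a lower M1, so this count is no separate support. The call of Ddit4 was lost without M1 replicate 1, M1 replicate 3 or either M2 array, which left 1 member higher. Of the 15 called higher in both, Cars, Tars and Yars were lower in M1 than in M2 and the other 12 were not called. The median difference of M1 from M2 was -0.47 over the members, beside 0.0029 over all genes.

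**Figure D2:**
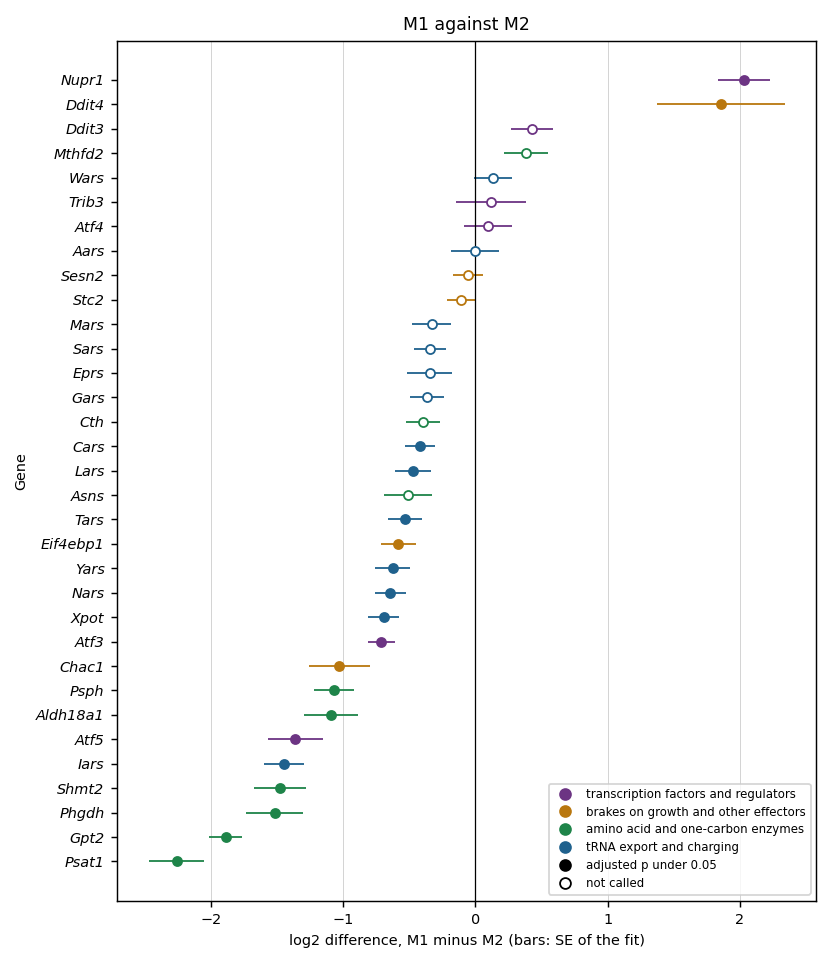
Points show the log2 difference of M1 from M2 for each of the 33 genes with the standard error of the fit, coloured by role and filled where the adjusted p was under 0.05. Nupr1 and Ddit4 lie near 2 on the M1 side, and genes of serine, alanine and proline synthesis make up most of the far end on the M2 side, led by Psat1 at -2.26.

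The M0 arrays themselves were uneven for this module. M0 replicate 3 had the lowest of the 3 M0 values in 27 of the 33 members, whereas it was lowest in 39.7% of the 9856 genes with a mean above 64 units. M0 replicate 1 had the highest value in 23 of the 33, against 41.2% of those genes. Relative to the M0 mean, the median of the members was 0.31, 0.49 and 0.55 on the 3 M1 arrays, 0.95 and 0.99 on the 2 M2 arrays, and 0.16, 0.05 and -0.20 on the 3 M0 arrays. Every M1 and M2 array therefore stood above all 3 M0 arrays by this median. Without M0 replicate 3 the median difference was 0.41 in M1 and 0.87 in M2, and 15 and 27 members were called higher.

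ATF4 binds an element that joins part of a C/EBP site to part of an ATF site. It was searched on both strands as TGATGNAAN, in the 300 bases from 250 before to 50 after each annotated start site. The sequences are those of RefSeq on the build GRCm38.p6, in which 27 of the measured members had an entry, and Eif4ebp1, Cth, Cars, Lars, Nars and Wars had none. A match was found in 10 of the 27 members (37.0%) and in 1299 of all 32851 promoters of this length (3.95%). The ATF part alone, TGATG, which lies within the longer motif, occurred in 15 of the 27 members and in 39.3% of all promoters. Genes are commonly put in this module because they are ATF4 targets, so these shares are a description of the list, and a match is not shown to be a bound site. For 9 of the 10 genes the matches are printed in capitals with 10 bases on each side. They are read 5′ to 3′ on the strand of the match. The search fixed every letter of the match except those written N, so their likeness follows from the search.
Nupr1: aagccctgtcTGATGCAATctggcccttt
Trib3: cccgcccggcTGATGTAAAcctgagctaa
Atf3: gcggacttggTGATGCAAGtgcgagaagg
Chac1: ctggcaggagTGATGCAACggcagggaag
Asns: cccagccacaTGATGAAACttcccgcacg
Gars: gcccggtgcaTGATGAAATagcgcagcca
Iars: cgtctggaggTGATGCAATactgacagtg
Tars: gctaaccagcTGATGCAACgggactcctg
Yars: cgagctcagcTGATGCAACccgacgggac

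The 9 letters of the match were identical in Nupr1 and Iars. Because only the letters written N can differ, such identity says little. Nupr1 was called higher in M1 only and Iars in M2 only, and a part of the match in this was not tested. Chac1, Tars and Yars shared another version of the match. These matches lay between 194 bases before and 22 bases after the start site. Those of Nupr1 and Atf3 lay at the same distance, 111 to 103 bases before the start, and those of Trib3, Iars and Yars lay just after it.

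**Figure D3:**
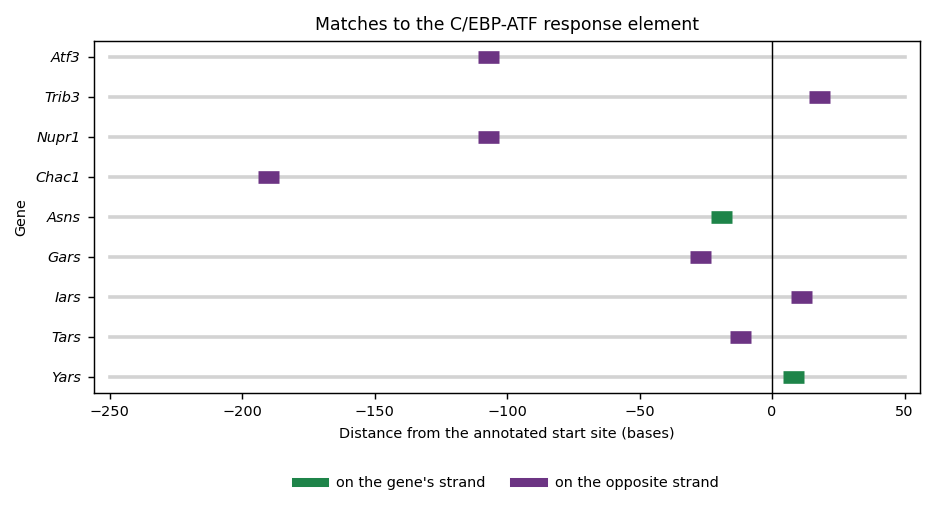
Coloured blocks mark matches to TGATGNAAN on the 300 bases searched (grey lines) for 9 genes, by distance in bases from the annotated start site (vertical line) and by strand. The matches of Asns and Yars lie on the strand of the gene and all others on the opposite strand.

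A longer stretch is given for 3 genes with different calls, Nupr1 (called in M1 only), Chac1 (called in M2 only) and Asns (called in both). A missing call does not show that a gene was unchanged. The stretches are 150 bases 5′ to 3′ on the strand of the gene. The capitals mark the match, which in Nupr1 and Chac1 reads as its reverse complement. They are chr7:126625492-126625641 for Nupr1 on the minus strand, chr2:119350992-119351141 for Chac1 on the plus strand and chr6:7693210-7693359 for Asns on the minus strand.
Nupr1: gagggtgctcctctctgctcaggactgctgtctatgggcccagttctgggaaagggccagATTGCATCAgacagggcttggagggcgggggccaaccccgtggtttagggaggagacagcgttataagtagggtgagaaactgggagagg
Chac1: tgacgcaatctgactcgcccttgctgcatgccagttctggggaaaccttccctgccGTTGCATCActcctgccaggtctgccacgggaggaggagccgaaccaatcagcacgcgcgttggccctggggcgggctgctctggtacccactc
Asns: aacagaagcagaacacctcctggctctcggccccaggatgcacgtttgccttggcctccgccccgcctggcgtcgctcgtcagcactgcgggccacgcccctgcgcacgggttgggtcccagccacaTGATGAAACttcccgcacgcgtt

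Among the 6 transcription factors and regulators, 4 were higher in M1 and 5 in M2 than in M0. The shares of all genes that were higher were 13.7% in M1 and 8.03% in M2. Atf4 itself measured 4641, 5402 and 5931 units in M1, 4772 and 5143 units in M2, and 2847, 2597 and 1761 units in M0 macrophages. All M1 and M2 arrays lay above all M0 arrays, and those of M1 and M2 overlapped. Its level was 2.25 times that of M0 in M1 (log2 difference 1.17 ± 0.16 SE, adjusted p = 0.000224, n = 3 and 3, limma) and 2.11 times in M2 (1.07 ± 0.18, adjusted p = 0.00201, n = 2 and 3). The difference of M1 from M2 was 0.10 ± 0.18 (adjusted p = 0.804). A second, dimmer probe set of Atf4 was called higher in M1 (0.75, adjusted p = 0.0128) but not in M2 (0.11, adjusted p = 0.827), so the rise of Atf4 mRNA in M2 rests on the brighter probe set. The third probe set stayed below 64 units and was called in neither comparison.

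Trib3 and Ddit3, like Atf4, were higher in both conditions. Trib3, a pseudokinase that ATF4 switches on and that restrains ATF4 in turn, measured 1032, 1461 and 1442 units in M1, 1090 and 1311 units in M2, and 498, 355 and 223 units in M0 macrophages. Its level was 3.81 times that of M0 in M1 (1.93 ± 0.24, adjusted p = 8.73e-05) and 3.51 times in M2 (1.81 ± 0.27, adjusted p = 0.000694), and the activated conditions overlapped. No other member called in both comparisons was raised as far in either of them.

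Ddit3 encodes CHOP, a C/EBP family protein that pairs with ATF4 and is known for its role in death of stressed cells. It measured 1787, 2348 and 1800 units in M1, 1551 and 1373 units in M2, and 1010, 909 and 753 units in M0 macrophages. All 3 conditions were apart, M1 above M2 above M0. The difference from M0 was 1.15 ± 0.14 in M1 (adjusted p = 7.43e-05) and 0.72 ± 0.16 in M2 (adjusted p = 0.00914), and that of M1 from M2 was 0.43 ± 0.16 (adjusted p = 0.0804). Without M2 replicate 1 the M2 difference of 0.63 was not called (adjusted p = 0.0899). A second probe set of Ddit3, at 77.5 to 148 units, went the other way in M1, with a called difference of -0.45 from M0 (adjusted p = 0.00667), so the rise rests on the brighter probe set.

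Nupr1, a small nuclear protein induced by many stresses, was the member that set M1 apart. It measured 3817, 4009 and 3079 units in M1, 916 and 854 units in M2, and 787, 652 and 454 units in M0 macrophages. The lowest M1 array was far above the highest array of the other conditions. Its level in M1 was 5.87 times that of M0 (2.55 ± 0.18, adjusted p = 7.06e-07) and 4.08 times that of M2 (2.03 ± 0.20, adjusted p = 1.05e-05). In M2 both arrays also lay above all M0 arrays, but the difference of 0.52 ± 0.20 was not called (adjusted p = 0.117), and it was called without M0 replicate 1 (0.70, adjusted p = 0.0331).

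Atf5 and Atf3 showed the reverse, a change in M2 and none that was called in M1. Atf5, a relative of ATF4 whose translation is controlled in a similar way, measured 553, 659 and 759 units in M1, 1557 and 1800 units in M2, and 972, 716 and 547 units in M0 macrophages. The M1 and M0 arrays overlapped, and both M2 arrays lay above them. Atf5 was 2.31 times as high in M2 as in M0 (1.21 ± 0.21, adjusted p = 0.00208) and differed by -1.36 ± 0.21 between M1 and M2 (adjusted p = 0.00044). Atf3, a stress-induced repressor of inflammatory genes, was at 3415 to 3545 units in M1, 5555 and 5857 units in M2, and 3420 to 3564 units in M0 macrophages. Its M1 and M0 arrays overlapped, with a difference of 0.0026 ± 0.090, and its M2 arrays stood 0.71 ± 0.10 above M0 (adjusted p = 0.000518).

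**Figure D4:**
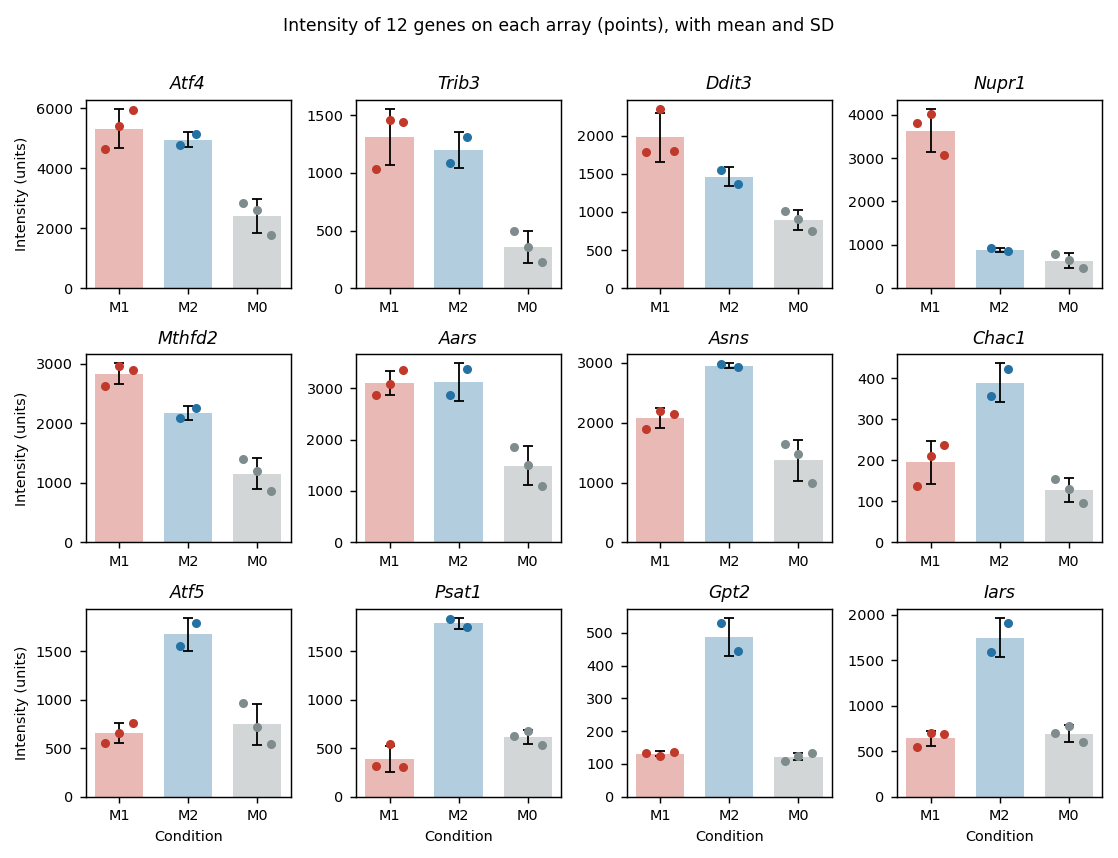
Points show the intensity in units of 12 genes on each array, with bars for the mean and lines for the SD of M1 (n = 3), M2 (n = 2) and M0 (n = 3). Atf4, Trib3, Ddit3, Mthfd2 and Aars are high in M1 and M2, Nupr1 in M1, and Atf5, Psat1, Gpt2 and Iars in M2.

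The 5 brakes on growth and other effectors were not all called alike. In M1 Sesn2 alone was called higher, and in M2 Sesn2, Eif4ebp1 and Chac1 were. Over all genes 13.7% were higher in M1 and 8.03% in M2. Thus 1 of 5 in M1 is near the share of all genes, whereas 3 of 5 in M2 exceeds it. Sesn2, which senses leucine and holds back the growth kinase mTORC1, was at 406 to 484 units in M1, 444 and 484 units in M2, and 315 to 329 units in M0 macrophages. Its difference from M0 was 0.48 ± 0.10 in M1 (adjusted p = 0.00431) and 0.54 ± 0.11 in M2 (adjusted p = 0.00779). Without M2 replicate 2 the M2 difference of 0.47 was not called (adjusted p = 0.0691), and the number of these genes called higher in M2 was 1 in place of 3. In M1 the number was 2 when M0 replicate 1 was left out, and likewise for M1 replicate 1 and for M1 replicate 2.

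Chac1, an enzyme that breaks down glutathione and a well known ATF4 target, measured 137, 210 and 237 units in M1, 356 and 423 units in M2, and 156, 131 and 96.5 units in M0 macrophages. Both M2 arrays lay above all others, while 1 M1 array fell within the M0 range. Chac1 was 3.10 times as high in M2 as in M0 (1.63 ± 0.23, adjusted p = 0.000506). In M1 the difference of 0.60 ± 0.21 was not called (adjusted p = 0.0598), and it was called without M0 replicate 1 (0.76, adjusted p = 0.0302) or M1 replicate 1 (0.83, adjusted p = 0.00818). M1 differed from M2 by -1.03 ± 0.23 (adjusted p = 0.00665), a difference that was not called without M2 replicate 2 (-0.91, adjusted p = 0.0738).

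Eif4ebp1, which binds the cap-binding protein eIF4E and so holds back translation, was at 1428 to 1584 units in M1, 2108 and 2386 units in M2, and 1456 to 1906 units in M0 macrophages. The M2 difference of 0.47 ± 0.13 was close to the threshold (adjusted p = 0.0381), and it was not called when M0 replicate 2, M0 replicate 3, M1 replicate 1 or either M2 array was left out (0.38 to 0.56, adjusted p of 0.0526 to 0.214). M1 lay below M2 by 0.58 ± 0.13 on the log2 scale (adjusted p = 0.00737), though not called without M2 replicate 2 (-0.49, adjusted p = 0.0744).

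Ddit4, another brake on mTORC1 and a gene that hypoxia and glucocorticoids also induce, differed between arrays of the same condition. It measured 577, 112 and 383 units in M1, 78.4 and 82.9 units in M2, and 120, 133 and 180 units in M0 macrophages. M1 replicate 2 lay below all M0 arrays, whereas the other M1 arrays lay well above them. With all arrays neither the M1 difference of 1.04 ± 0.43 (adjusted p = 0.127) nor the M2 difference of -0.82 ± 0.48 (adjusted p = 0.352) was called. Without M1 replicate 2 both were, at 1.73 (adjusted p = 9.58e-05) and -0.82 (adjusted p = 0.0192), with the spread shared by all conditions in the fit. M1 stood 1.85 ± 0.48 above M2 (adjusted p = 0.0170), a call that was lost without M1 replicate 1, M1 replicate 3 or either M2 array (1.36 to 1.89, adjusted p of 0.0521 to 0.110). Stc2, a secreted glycoprotein, stayed below 64 units on every array, so its difference of -0.087 in M1 and 0.021 in M2 says little.

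The enzymes of amino acid and one-carbon metabolism separated the conditions most clearly. All 9 measured enzymes were higher in M2 than in M0, with a median difference of 1.20, and 7 of them by at least 2-fold. In M1 Asns and Mthfd2 were higher, Psat1 was lower and 6 were not called, with a median difference of 0.12. Between the activated conditions 6 of the 9 were lower in M1 than in M2 and none was higher, with a median of -1.09. Of all genes 12.3% were lower and 11.5% higher in that comparison. Against M0, 13.7% of all genes were higher in M1 and 8.03% in M2. In M1 11.5% of all genes were lower, so 1 lower enzyme is near that share.

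Serine is made from a glycolytic intermediate by Phgdh, Psat1 and Psph in turn, and Shmt2 then converts it to glycine in mitochondria. All 4 genes were higher in M2. Phgdh measured 563, 637 and 728 units in M1, 2387 and 1405 units in M2, and 977, 797 and 653 units in M0 macrophages. The 2 M2 arrays differed widely from each other but both lay above all others, and the M2 level was 2.29 times that of M0 (1.20 ± 0.22, adjusted p = 0.00296). In M1 the difference from M0 was -0.32 ± 0.19 and not called (adjusted p = 0.317).

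Psat1 measured 314, 542 and 307 units in M1, 1831 and 1748 units in M2, and 627, 676 and 536 units in M0 macrophages. It was 2.93 times as high in M2 as in M0 (1.55 ± 0.21, adjusted p = 0.000377). It was the only member called lower in M1 (-0.71 ± 0.19, adjusted p = 0.0174), although M1 replicate 2 fell within the M0 range. That call was lost without M0 replicate 1, M0 replicate 2, M1 replicate 1 or M1 replicate 3 (-0.69 to -0.56, adjusted p of 0.0519 to 0.0790), which left none of the enzymes lower in M1, while 2 were lower without M0 replicate 3. M1 and M2 differed by -2.26 ± 0.21 (adjusted p = 7.30e-06), farther than for any other of the 33 members. A second probe set of Psat1 was also called lower in M1 than in M0 (-0.69, adjusted p = 0.0111). On it all M1 arrays lay below all M0 arrays.

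Psph measured 191, 225 and 184 units in M1, 472 and 369 units in M2, and 197, 179 and 154 units in M0 macrophages. The M1 and M0 arrays overlapped, and the M2 level was 2.38 times that of M0 (1.25 ± 0.15, adjusted p = 0.000134). Shmt2 measured 364, 516 and 500 units in M1, 1178 and 1358 units in M2, and 720, 674 and 465 units in M0 macrophages. Its M2 arrays lay above all others, at 2.08 times the M0 level (1.06 ± 0.20, adjusted p = 0.00353). In M1 the difference of -0.42 ± 0.17 was not called (adjusted p = 0.124), but it was without M0 replicate 3 (-0.62, adjusted p = 0.0177). A second probe set was called lower in M1 with all arrays (-0.42, adjusted p = 0.0203). In M2 that probe set and the dimmest were called higher (1.00 and 0.53). The remaining probe set, at 124 to 269 units, was not called in M2 (0.41, adjusted p = 0.299), and its M2 and M0 arrays overlapped.

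Mthfd2, an enzyme that oxidizes folate-bound carbon units in mitochondria, did not share the pattern of the serine genes. It measured 2633, 2968 and 2888 units in M1, 2088 and 2257 units in M2, and 1392, 1205 and 868 units in M0 macrophages. The conditions were apart in the order of Ddit3, with M1 the highest. The level was 2.49 times that of M0 in M1 (1.32 ± 0.15, adjusted p = 4.59e-05) and 1.92 times in M2 (0.94 ± 0.17, adjusted p = 0.00287), and M1 and M2 differed by 0.38 ± 0.17 (adjusted p = 0.157). Thus in M1 macrophages Mthfd2 was higher than in M0 while Psat1 was lower and Phgdh, Psph and Shmt2 were not called.

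Asns, asparagine synthetase, measured 1889, 2189 and 2153 units in M1, 2980 and 2926 units in M2, and 1639, 1478 and 989 units in M0 macrophages. The 3 conditions did not overlap, with M2 the highest. Its level was 1.55 times that of M0 in M1 (0.63 ± 0.16, adjusted p = 0.0137) and 2.21 times in M2 (1.14 ± 0.18, adjusted p = 0.00115). The difference of M1 from M2 was -0.51 ± 0.18 (adjusted p = 0.0705), and it was called without M0 replicate 1 (adjusted p = 0.0452) or M0 replicate 3 (adjusted p = 0.0108). A second probe set of Asns was called in M2 (1.17) but not in M1 (0.55, adjusted p = 0.0764).

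Gpt2, the mitochondrial alanine aminotransferase, showed the most marked rise of the members in M2. It measured 134, 124 and 137 units in M1, 530 and 446 units in M2, and 109, 123 and 132 units in M0 macrophages. The M1 and M0 arrays overlapped, with a difference of 0.12 ± 0.11 (adjusted p = 0.561), and the M2 level was 4.01 times that of M0 (2.01 ± 0.12, adjusted p = 5.80e-07). Aldh18a1, which opens the path from glutamate to proline, measured 204, 289 and 269 units in M1, 511 and 560 units in M2, and 249, 190 and 146 units in M0 macrophages. Its M2 arrays stood apart, at 2.81 times the M0 level (1.49 ± 0.20, adjusted p = 0.000384), and its M1 difference of 0.40 ± 0.18 was called only without M0 replicate 1 (0.59, adjusted p = 0.0284). Cth, which releases cysteine from cystathionine, was below 64 units on every array, at 10.1 to 13.0 units in M1, 13.9 and 15.8 units in M2, and 9.75 to 10.9 units in M0 macrophages. Its M2 call (0.50 ± 0.13, adjusted p = 0.0236) was made at that low level and was lost without M0 replicate 2, M0 replicate 3 or either M2 array (0.41 to 0.60, adjusted p of 0.0513 to 0.162).

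**Figure D5:**
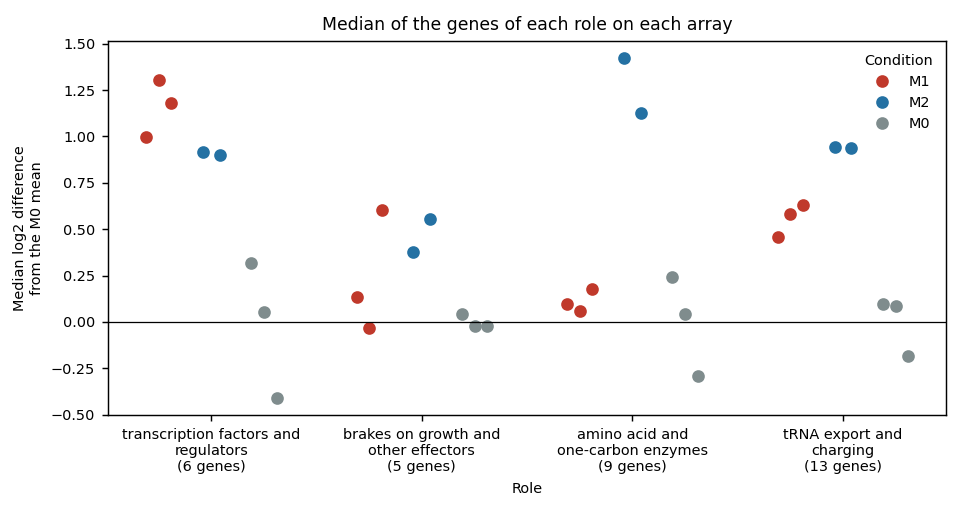
Each point is 1 array and gives the median over the genes of a role of the log2 difference from the M0 mean, for M1, M2 and M0. The M1 arrays are the highest for regulators, lie among the M0 arrays for the enzymes and lie between M0 and M2 for tRNA export and charging.

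Aminoacyl-tRNA synthetases join each amino acid to its tRNA. All 12 cytosolic synthetases of the module were higher in M2 than in M0, by 0.61 to 1.34 with a median of 0.98, and 9 of the 12 were higher in M1, with a median of 0.60 over the 12. The 3 not called in M1 were Iars, Lars and Nars, for isoleucine, leucine and asparagine. None was lower in either condition. Between M1 and M2, 6 of the 12 were lower in M1 and none was higher, beside 12.3% and 11.5% of all genes. Against M0, 13.7% of all genes were higher in M1 and 8.03% in M2.

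Aars, alanyl-tRNA synthetase, was higher than in M0 in both conditions. It measured 2867, 3082 and 3347 units in M1, 2858 and 3373 units in M2, and 1853, 1511 and 1104 units in M0 macrophages. The M1 and M2 arrays covered nearly the same range, above all M0 arrays. Its difference from M0 was 1.09 ± 0.16 in M1 (adjusted p = 0.000381) and 1.09 ± 0.18 in M2 (adjusted p = 0.00174), and a second probe set gave 1.20 and 1.18. It was the only synthetase of the module to reach 2-fold in M1.

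Iars, isoleucyl-tRNA synthetase, went to the other extreme. It measured 550, 698 and 685 units in M1, 1596 and 1906 units in M2, and 701, 781 and 599 units in M0 macrophages. The M1 and M0 arrays overlapped (-0.11 ± 0.13, adjusted p = 0.682), and the M2 level was 2.53 times that of M0 (1.34 ± 0.15, adjusted p = 8.03e-05). M1 differed from M2 by -1.45 ± 0.15 (adjusted p = 1.81e-05), and a second probe set of Iars gave -1.53.

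Yars, Eprs and Cars also passed 2-fold in M2. Yars, for tyrosine, measured 664, 716 and 862 units in M1, 1143 and 1148 units in M2, and 514, 530 and 443 units in M0 macrophages. Its 3 conditions did not overlap, with differences from M0 of 0.59 ± 0.12 in M1 (adjusted p = 0.00327) and 1.21 ± 0.13 in M2 (adjusted p = 6.96e-05), and M1 was lower than M2 (-0.63 ± 0.13, adjusted p = 0.00488). Eprs, which charges both glutamate and proline tRNA, measured 1305, 1553 and 1493 units in M1, 1761 and 1915 units in M2, and 1025, 850 and 639 units in M0 macrophages. The conditions again did not overlap, at 0.81 ± 0.15 in M1 (adjusted p = 0.00196) and 1.16 ± 0.17 in M2 (adjusted p = 0.000701), and a probe set below 64 units was called in neither.

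Cars, for cysteine, measured 607, 662 and 650 units in M1, 880 and 833 units in M2, and 439, 445 and 378 units in M0 macrophages. The conditions were apart, with differences from M0 of 0.61 ± 0.10 in M1 (adjusted p = 0.000857) and 1.03 ± 0.11 in M2 (adjusted p = 7.41e-05). The difference of M1 from M2, -0.42 ± 0.11 (adjusted p = 0.0201), was not called without M1 replicate 1 or either M2 array (-0.46 to -0.38, adjusted p of 0.0554 to 0.119). A dimmer probe set of Cars, at 62.3 to 73.8 units, was called in no comparison.

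Of the other synthetases, Gars (glycine), Mars (methionine, listed as Mars1), Sars (serine), Tars (threonine) and Wars (tryptophan) were called higher in both conditions, by 0.44 to 0.74 in M1 and 0.61 to 0.99 in M2. The Tars difference in M1, 0.44 ± 0.11 (adjusted p = 0.0143), was not called without M0 replicate 3 or M1 replicate 2 (both 0.37, adjusted p of 0.0718 and 0.0572). Tars was also lower in M1 than in M2 (-0.53 ± 0.13, adjusted p = 0.0105), a call lost without M2 replicate 1 (-0.46, adjusted p = 0.0968). Wars, which IFN-γ is known to induce in human cells, measured 1157, 1278 and 1375 units in M1, 1104 and 1206 units in M2, and 920, 707 and 666 units in M0 macrophages. It was the only synthetase of the module with a higher estimate in M1 than in M2, though the arrays overlapped and the difference of 0.13 ± 0.15 was not called (adjusted p = 0.624). The Wars rise in M2 (0.61 ± 0.15, adjusted p = 0.0162) was not called without M0 replicate 2, M0 replicate 3 or either M2 array (0.52 to 0.67, adjusted p of 0.0573 to 0.114).

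Nars and Lars, like Iars, were called higher in M2 and not in M1, with smaller estimates. Nars was at 2460 to 2767 units in M1, 3935 and 4146 units in M2, and 2293 to 2746 units in M0 macrophages, a difference from M0 of 0.011 ± 0.10 in M1 and 0.65 ± 0.12 in M2 (adjusted p = 0.00287). Lars differed from M0 by 0.28 ± 0.12 in M1 (adjusted p = 0.142) and 0.75 ± 0.13 in M2 (adjusted p = 0.00294). Lars was lower in M1 than in M2 (-0.47 ± 0.13, adjusted p = 0.0279), which was not called without M1 replicate 1 or either M2 array (-0.52 to -0.39, adjusted p of 0.0709 to 0.164). Without M2 replicate 1 the number of the 13 genes of tRNA export and charging called lower in M1 than in M2 was 4 in place of 7.

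Xpot, which carries tRNA out of the nucleus, was at 841 to 917 units in M1, 1378 and 1495 units in M2, and 932 to 1107 units in M0 macrophages. It was higher in M2 (0.53 ± 0.12, adjusted p = 0.00979), though not called without M2 replicate 2 (0.47, adjusted p = 0.0794). In M1 its probe sets disagreed. The brightest gave -0.16 ± 0.10, not called (adjusted p = 0.346), and the second was called higher (0.48 ± 0.10, adjusted p = 0.00385), so no direction is given for Xpot in M1. All probe sets of Xpot above 64 units were called higher in M2.

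Across the module, 22 of the 33 genes had more than 1 probe set. Of the 40 further probe sets, 33 gave the same call as the main one in M1 against M0, 32 in M2 against M0 and 35 in M1 against M2, and that of Ddit3 in M1 was the only one with an opposite call. The genes with a differing call were Atf4, Ddit3, Asns, Shmt2, Xpot, Cars, Eprs and Eif4ebp1. The main probe set of 9 genes, Eif4ebp1, Phgdh, Psat1, Shmt2, Aldh18a1, Xpot, Aars, Iars and Wars, has a name that marks probes which can also match other transcripts.

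Other genes around the pathway were taken from lists written from general knowledge. Upstream, 13 genes were measured, for the eIF2 kinases, eIF2B and the eIF2 phosphatase, with Gcn1l1 and Impact. In M1 6 of the 13 were higher and none was lower, whereas in M2 5 were higher and 1 was lower. The shares higher were 46.2% in M1 and 38.5% in M2, beside 13.7% and 8.03% of all genes. In M2 6.43% of all genes were lower, so 1 lower gene is near that share. Ppp1r15a (GADD34), which brings phosphatase to eIF2 and is itself an ATF4 target, differed from M0 by 1.84 ± 0.11 in M1 and 1.00 ± 0.12 in M2 (adjusted p = 2.06e-07 and 0.000171). Its relative Ppp1r15b differed by 1.27 and 0.59 (adjusted p = 2.66e-06 and 0.00452). M1 exceeded M2 in both, by 0.84 and 0.68 (adjusted p = 0.000309 and 0.000970). Of the 4 kinases only Eif2ak2 (PKR), which responds to double-stranded RNA, was called, with a lower level in M2 (-1.19 ± 0.11, adjusted p = 1.97e-05), and in M1 its difference was 0.13 ± 0.10 (adjusted p = 0.441). Eif2b3, a subunit of the factor that reloads eIF2, was higher in both, by 0.79 in M1 and 0.62 in M2.

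Of 12 measured partners and further targets of ATF4, 6 were higher and 2 lower in M1, and 3 were higher and none lower in M2 (5 higher without M1 replicate 1 or without M1 replicate 2). Over all genes 13.7% were higher and 11.5% lower in M1, and 8.03% were higher and 6.43% lower in M2. Jdp2, a leucine zipper protein that represses its targets, differed by 2.32 ± 0.15 in M1 and 1.04 ± 0.16 in M2 (adjusted p = 3.51e-07 and 0.00114). Cebpb, a partner of ATF4 on the element, was higher in M1 by 1.64 ± 0.12 (adjusted p = 1.40e-06), with 0.28 ± 0.14 in M2 (adjusted p = 0.234). Ero1l, which drives disulfide bond formation, and Gtpbp2, a factor that helps stalled ribosomes, were higher in M1 by 1.70 and 1.18, with 0.64 and 0.41 in M2 that were not called (adjusted p = 0.0573 and 0.0756). All 4 of these genes, named for their large differences from M0, were higher in M1 than in M2, by 0.77 to 1.35 (adjusted p of 1.51e-05 to 0.00211). Of all 12, 6 were higher and 2 lower in M1 than in M2, beside 11.5% and 12.3% of all genes. The 2 lower were Herpud1 (-0.71, adjusted p = 0.00129) and Cebpd (-0.92, adjusted p = 0.0207).

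Amino acid carriers bring in what the enzymes of the module make or use. Of 10 carriers, 2 were higher and 2 lower in M1, while 7 were higher and none lower in M2. Of all genes 13.7% were higher and 11.5% lower in M1, and 8.03% were higher and 6.43% lower in M2. The shares of the carriers that were higher were 20.0% in M1 and 70.0% in M2. Without M0 replicate 1 the number higher in M1 was 4, and without M0 replicate 2 the number lower was 1. Slc7a11, the importer of cystine, was higher in both, by 4.47 ± 0.29 in M1 and 2.93 ± 0.33 in M2 (adjusted p = 4.99e-07 and 8.69e-05). Slc1a5, a carrier of glutamine and other neutral amino acids, was lower in M1 (-0.66 ± 0.11, adjusted p = 0.000591) and higher in M2 (1.67 ± 0.12, adjusted p = 1.85e-06). Slc7a1, for cationic amino acids, and Slc1a4, for neutral amino acids such as serine, were each higher in M2 by 1.50, with 0.43 and 0.39 in M1 that were not called (adjusted p = 0.133 and 0.0555). M1 was lower than M2 in Slc1a5, Slc7a1 and Slc1a4, with log2 differences of -2.33 to -1.07. Slc7a11 went the other way, higher in M1 than in M2 (1.54 ± 0.33, adjusted p = 0.00521).

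Of 14 other folate and amino acid enzymes, 1 was higher and 2 lower in M1 and 2 were higher and 1 lower in M2 (1 lower in M1 without M0 replicate 1, none lower in M2 without M2 replicate 1). These counts lie near the shares of all genes, which were 13.7% higher and 11.5% lower in M1 and 8.03% higher and 6.43% lower in M2. Glul, glutamine synthetase, was lower in both, with differences of -1.93 ± 0.13 in M1 and -0.72 ± 0.15 in M2 (adjusted p = 6.41e-07 and 0.00684). Mthfd1l, a mitochondrial folate enzyme, and Got1, the cytosolic aspartate aminotransferase, were higher in M2 by 0.79 and 0.89, with -0.076 and 0.25 in M1 that were not called. Mthfd2l, a relative of Mthfd2, was higher in M1 by 0.50 (adjusted p = 0.00201), with 0.045 in M2.

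Of 10 other cytosolic synthetases and scaffold proteins of their complex, 3 were higher in M1 and 5 in M2 (2 without M2 replicate 1), and none was lower, beside the same 13.7% and 8.03% of all genes. Rars, for arginine, was higher by 0.55 ± 0.095 in M1 and 1.68 ± 0.11 in M2 (adjusted p = 0.00110 and 7.44e-07), and M1 was lower than M2 (-1.13, adjusted p = 8.24e-06). Eef1e1, a scaffold protein, was higher by 0.74 and 0.81. Vars, for valine, and Aimp2, another scaffold protein, were higher in M2 by 0.61 and 0.53, with -0.15 and -0.0080 in M1 that were not called.

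Of 16 mitochondrial synthetases, 2 were higher and 1 lower in M1, and 5 were higher in M2. Over all genes 13.7% were higher and 11.5% lower in M1 and 8.03% higher in M2, so the 12.5% of these genes that were higher in M1 did not exceed the share of all genes. These counts were unsteady. Leaving out any 1 of the M0 or M2 arrays left 0 to 3 higher in M2, and leaving out M0 replicate 1, M0 replicate 3, M1 replicate 2 or M1 replicate 3 left 1 higher in M1, and the number lower in M1 ran from 0 to 2. No mitochondrial synthetase reached 2-fold. Nars2 and Yars2, for asparagine and tyrosine, were higher in both conditions, by 0.51 and 0.37 in M1 and 0.57 and 0.58 in M2, and Rars2, for arginine, was higher in M2 by 0.48. Mars2, for methionine, was called higher in M2 but stayed below 64 units on every array, with 14.5 and 9.17 units in M2, so its difference says little.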

How the data were processed

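RNA of macrophages was hybridized to Affymetrix whole-genome mouse arrays. The authors normalized the raw data with RMA in GenePattern and deposited intensity values on a linear scale for 45101 probe sets. RMA makes the distributions of the arrays alike, so a change shared by most genes would not be seen, and the number of arrays limits the precision. From here on, the log2 of each intensity was taken, 64 control probe sets were left out, and 45037 were fitted with limma 3.58.1 in R 4.3.3 (lmFit and eBayes, all 8 arrays, a mean per condition, no block), with Benjamini-Hochberg adjustment over all of them. The fit had 5 residual and 6.95 prior degrees of freedom and was tested on simulated data. A call was an adjusted p under 0.05 whatever the fold, ± is the standard error of the log2 difference, and a fold is 2 raised to it. Levels of different probe sets were not compared.

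A gene was represented by its probe set with the highest mean log2 value among the 34945 with 1 symbol (932 had several, 9160 were not listed). Members called with at least 2-fold in either comparison with M0 are given on every array, as are a few others chosen after their values were seen, and of each other list up to 4 called genes with the largest differences are named. Members and lists were chosen with earlier results of these data known. The array titles use the same replicate numbers in each condition but do not say that equal numbers are 1 mouse, so no pairs were used. Deviations of arrays with the same number correlated with r of -0.172 to 0.0547 over 7 pairs, beside -0.150 to 0.190 over 14 others. These correlations cannot exclude pairs, because deviations from the mean of so few arrays depend on each other. Figures were drawn with matplotlib 3.10.9. Raw image data, RT-PCR and flow cytometry were not analysed here. The promoter sequence of 1 member is not reported here.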

Additional observations from a re-analysis of the deposited data

How the results depend on the processing

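The median of the 33 members stayed above 0 in M1 and in M2 under every alternative tried, between 0.35 and 0.57 in M1 and between 0.87 and 1.07 in M2. Counts of calls moved more. With at least 2-fold required, 6 members were higher and 0 lower in M1 and 16 higher in M2, and 9 were lower in M1 than in M2. With an adjusted p under 0.01, 0 were lower in M1 than in M0 and 1 was higher in M1 than in M2. With values raised to at least 64 units, 13 were higher in M2, 0 were lower in M1, and 11 were lower and 1 higher in M1 than in M2. In that fit 55.0% of the probe sets stood at the limit on every array, and the prior degrees of freedom were 0.063 in place of 6.95. The methods' t-test on linear values, unadjusted and with at least 2-fold, called 6 higher and 0 lower in M1 and 15 higher in M2, with 1 higher and 8 lower in M1 than in M2. On log2 values with adjustment it called 5 higher and 0 lower in M1 and 1 higher in M2, with 1 higher and 2 lower in M1 than in M2, and the cause of these low counts was not tested. An intensity trend with robust variances left 1 higher in M1 than in M2, and a fit of only the groups compared made 1, Ddit4, lower in M2. With the second brightest probe set, 3 members were lower in M1 than in M0. Ddit3 then turned to -0.45 for M1 against M0 and -0.78 for M1 against M2, and Xpot turned to 0.48 for M1 against M0.

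With each array left out in turn, 15 to 18 members were higher and 0 to 2 lower in M1 than in M0, 25 to 31 were higher and 0 to 1 lower in M2 than in M0, and 1 to 2 were higher and 13 to 18 lower in M1 than in M2. With 1 M2 array left, that array was taken to vary like the other conditions. A fit was also made with the replicate number as a block, although the labels do not say that equal numbers are 1 mouse. It gave 16 higher and 1 lower in M1, 28 higher in M2, and 3 higher and 15 lower in M1 than in M2. Under the block Eif4ebp1 (0.41, adjusted p = 0.107) and Wars (0.59, adjusted p = 0.0509) lost their call in M2, Cars and Lars (-0.39 and -0.43) lost theirs between M1 and M2, and Ddit3 (0.52, adjusted p = 0.0464) gained one there. Median centring and a further quantile normalization left each of these counts over the members within 1.5 times. Levels below 64 units, as in Stc2 and Cth, limit what can be said of those genes.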
